A study of Mus musculus with 2 samples.

Results

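Microglia are macrophages that live in the brain and spinal cord. They owe their identity to a small set of transcription factors, and 9 of these factors are described here: Mef2a, Mef2c, Mef2d, Sall1, Spi1, Runx1, Cebpa, Cebpb and Maf. PU.1 (encoded by Spi1), RUNX1 and the C/EBP factors direct myeloid progenitors towards macrophages. MEF2 factors open enhancers that microglia use in the brain environment, and SALL1 sets microglia apart from other macrophages. MAF acts in mature macrophages. The members were found as the probes whose gene name on the array equals a member's symbol. This gave 14 probes for 8 of the 9 genes, out of 55681 probes for 34797 gene names. Spi1 itself is not used as a name on the array; its older symbol Sfpi1 is, for 1 probe, which is shown apart from the 14.

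The microglia came from the spinal cord of mice with an atopic diathesis (a tendency to allergic disease) and of control mice, were sorted, and were measured as 1 sample of each group on 1-colour expression arrays of the same slide. In the titles these are "activated" and "normal" microglia. The sources used here do not give how the model was produced, the strain, the age or the number of mice per sample. Because each group has 1 array, the place of the array on the slide and the group cannot be told apart. With 1 array a group there is no replicate check, no test and no p-value, and every value describes these 2 samples.

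Of all probes, 24.1% were well above background in control and 27.6% in atopic diathesis, and 9204 genes had a probe above background on both arrays ("measured"). Differences are log2 atopic diathesis minus control, relative to the median measured gene. A difference of at least 1 is 2-fold, and genes past it are called higher or lower. The error comes from probes printed 10 times on each array: its 95% interval was ±0.40 over the 101 of them that were above background on both arrays and ±0.57 over the 35 with a mean signal under 100. It was narrower for bright spots, at ±0.29 for the 48 with a mean signal of 100 to 1000 and ±0.15 for the 18 above that. The wider ±0.40 is printed for all members except Mef2c, and the narrower one is named where it changes what a difference exceeds. It covers spot error, not the spread between animals, sorts or amplifications. All 12 defining microglia markers of the fixed list were measured and within 2-fold, at a median of -0.13. Markers of other glia were mixed: 1 of 3 measured oligodendrocyte markers was higher (Cnp, 68.2 and 216), and all 3 measured astrocyte markers lay within 2-fold. Above background in atopic diathesis only were the astrocyte gene Gja1 (10.4 and 241) and the oligodendrocyte gene Mag (14.9 and 48.9). So was the mast cell gene Mcpt4 (5.02 and 56.5). The other 8 erythroid and mast cell markers, Cpa3, Tpsb2 and Kit among them, were well above background on neither array. The same held for 3 of 7 astrocyte and 5 of 10 oligodendrocyte markers, and probes of the oligodendrocyte gene Mobp disagreed. Over the whole array, 13546 genes had a probe above background on at least 1 array, against 9204 on both. The part of these cell types in the results was not tested. On neither array did any of 10 monocyte and macrophage markers or 8 neutrophil markers rise well above background. In bulk RNA, fewer cells of a type and less RNA per cell cannot be told apart.

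The probes decide what each value can say, so those on which the results turn are shown first. Coordinates are mm9, and sequences run 5′ to 3′ as in the scanner file. The Mef2c probe (chr13:83772788-83775025, plus strand) and the dimmest Mef2d probe (chr3:87972214-87972560, plus strand) have 60 bases spread over 2238 and 347 bases of genome, so each bridges an exon junction, as does the Spi1 probe (chr2:90939665-90953452, plus strand), which starts at position 275 of its transcript.
Mef2c, A_55_P2155620: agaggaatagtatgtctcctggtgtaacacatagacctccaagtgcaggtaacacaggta
Mef2d, A_51_P504672: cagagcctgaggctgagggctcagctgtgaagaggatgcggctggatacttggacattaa
Spi1, A_52_P498086: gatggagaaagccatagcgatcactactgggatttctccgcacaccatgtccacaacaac

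Mef2a and Maf have several measured probes that read differently, and the last 30 bases of 4 of them are given. The Mef2a probes A_65_P08239 and A_52_P175157 lie on the minus strand of chromosome 7, at chr7:74378751-74378810 and chr7:74376573-74376632 in the order of transcription. The Maf probes lie on the minus strand of chromosome 8, at chr8:118227736-118227795 and chr8:118207273-118207332, with 20403 bases between them.
Mef2a, A_65_P08239: actttttagttttattttaagaggggagaa
Mef2a, A_52_P175157: gtttcaccatttcctttcaactgtaaagac
Maf, A_51_P405167: actgtattgaaaaccaaagtattaaaaggg
Maf, A_55_P1962429: ttatgattacagtattgagctccacccccc

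None of the 14 member probes shares a 20-base word with a probe of another gene name, whereas 7.22% of all probes do. All 14 are printed once per array.

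Mef2c was the member that differed most. The other 7 measured genes spread from -1.21 to 0.64, with Maf and Mef2d past 2-fold on the lower side and Sall1, Mef2a, Cebpa, Cebpb and Runx1 within 2-fold. Thus 1 of 8 measured members was higher, where 17.3% of all measured genes were, and 2 of 8 were lower, where 15.6% were. By probe, 1 of 11 measured was higher against 17.6% of all measured probes, and 2 of 11 were lower against 16.3%, which makes 3 of 11 past 2-fold against 33.9%. In both directions together, 37.5% of measured members lay past 2-fold against 32.9% of all measured genes, a share near that of the whole array. Over all measured genes 1594 were higher and 1435 lower. On the scale of the 75th percentile of all probes these became 987 and 2501, and Cebpa joined Maf and Mef2d as lower members. The median of the members was -0.05, against 0 for all measured genes by construction.

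**Figure D1:**
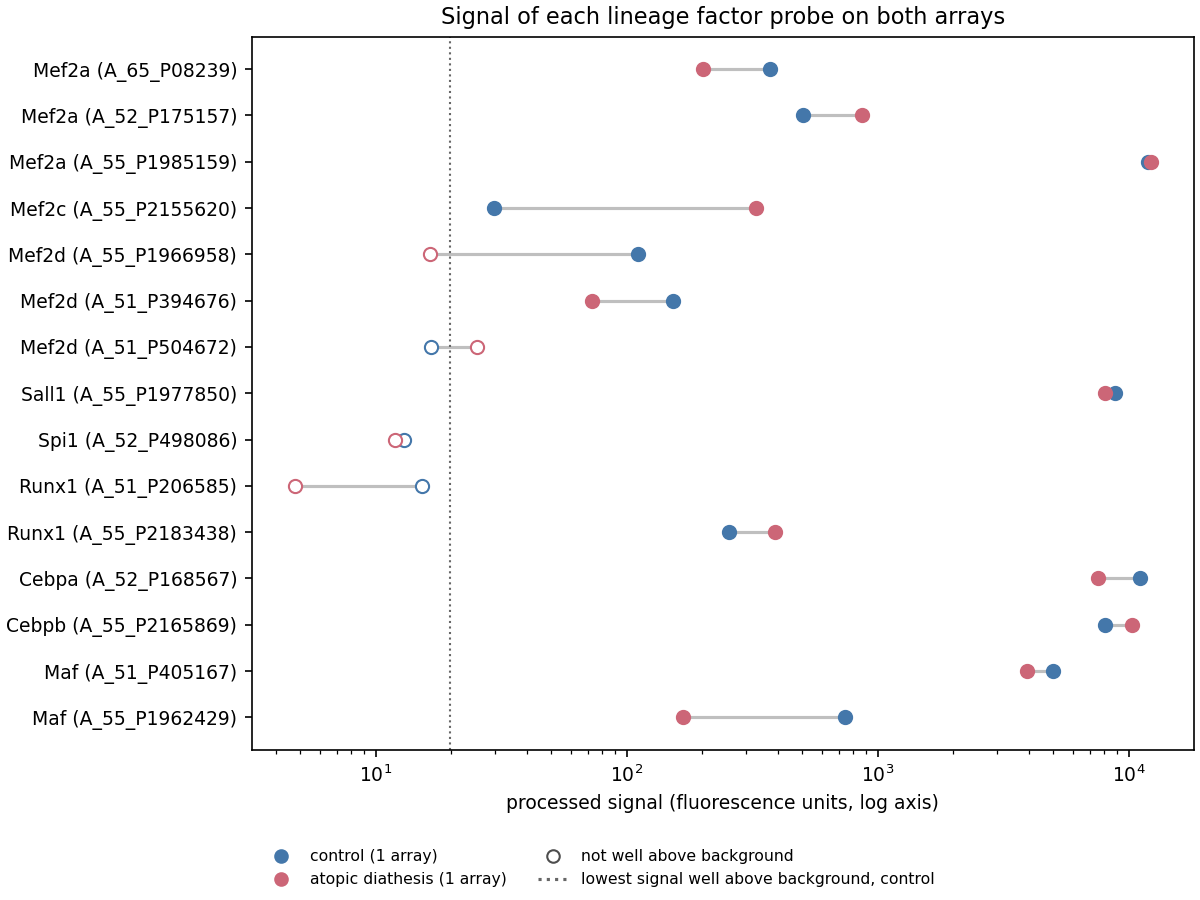
Processed signal (fluorescence units, log axis) of each lineage factor probe on the control array (blue) and the atopic diathesis array (red), with open circles for signals not well above background. The Mef2c probe goes from 29.7 to 327, while the probes of Sall1, Cebpa and Cebpb stay close together on both arrays.

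Among the MEF2 factors, which bind A/T-rich sites through a MADS domain and recruit histone deacetylases or acetyltransferases, the genes went separate ways. Mef2c, a factor that restrains inflammatory responses in microglia, read 29.7 on the control array and 327 on that of atopic diathesis. The control signal lies little above 19.8, the lowest signal that counted as well above background on that array. The log2 difference was 3.50 ± 0.57, or 11.3-fold. The scanner software gave the control spot an error of 5.51 and the atopic diathesis spot one of 33.1. Mef2c stood at percentile 97.8 of the 2252 measured probes with a mean signal between 60.9 and 127, where 4.53% of probes were at least 8-fold higher. With normexp background correction, which keeps an offset on every spot, the difference was 2.01, and with uncorrected signals 1.83, so the 2-fold call held while the size moved.

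Mef2c is also made by neurons, endothelial cells and B cells, so their markers are given beside it. Of 9 neuron markers 7 lacked a signal well above background on both arrays. The remaining ones, Snap25 (82155 and 84015) and Chat (45.8 and 49.2), had differences of 0.07 and 0.14. The summed signal of the neuron list was 82249 in control and 84116 in atopic diathesis, nearly all of it Snap25. Of 8 endothelial and mural markers 5 were not well above background, and the signals of all 8 summed to 483 and 267. Kdr, the only measured one, read 128 and 104 (-0.27). Pecam1 was above background in atopic diathesis only (5.64 and 127) and Flt1 in control only (328 and 5.07). Of 9 lymphocyte markers 7 were not well above background, the B cell genes Ms4a1 and Cd79a among them, and the sums over all 9 were 164 and 154. Nkg7, the only measured one, read 121 and 63.0 (-0.91). Cd79b, a part of the B cell receptor, read 5.43 and 37.0 and was above background in atopic diathesis only. The part of these cells in the Mef2c difference was not tested.

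Mef2d had 3 probes, of which 1 was measured. That probe (A_51_P394676, chr3:87975777-87975836, plus strand) read 152 in control and 73.0 in atopic diathesis, a difference of -1.03 ± 0.40. The 2-fold line lies inside this interval. The call was lost with normexp (-0.54), with uncorrected signals (-0.49) and on the scale of the 75th percentile of detected probes (-0.95). A second probe (A_55_P1966958) was above background in control only, at 111 against 16.4, which makes it at least 5.47-fold lower. That bound takes 19.9, the lowest signal well above background on the atopic diathesis array, in place of the dim value, and it shrank to 2.26 with normexp and 1.98 with uncorrected signals. The junction probe shown above stayed at background on both arrays (16.6 and 25.4), so no direction is read from it.

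Mef2a was measured by all 3 of its probes, and these disagreed. In the order of transcription the signals in control and atopic diathesis were 11987 and 12268, then 372 and 202, then 506 and 863. The differences were 0.07, -0.85 and 0.80, each ± 0.40. Thus the second was lower and the third higher, none of the 3 by 2-fold, and the mean was 0.01. For the second and the third the 2-fold line lies inside the interval. The second and the third probe have 2118 bases between them. The range over all 3 probes, 1.65, stood at percentile 66.4 among the 214 genes with 3 measured probes, whose median range was 0.98 and of which 49.1% had probes on both sides of the median gene. Such disagreement is therefore common on these arrays.

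**Figure D2:**
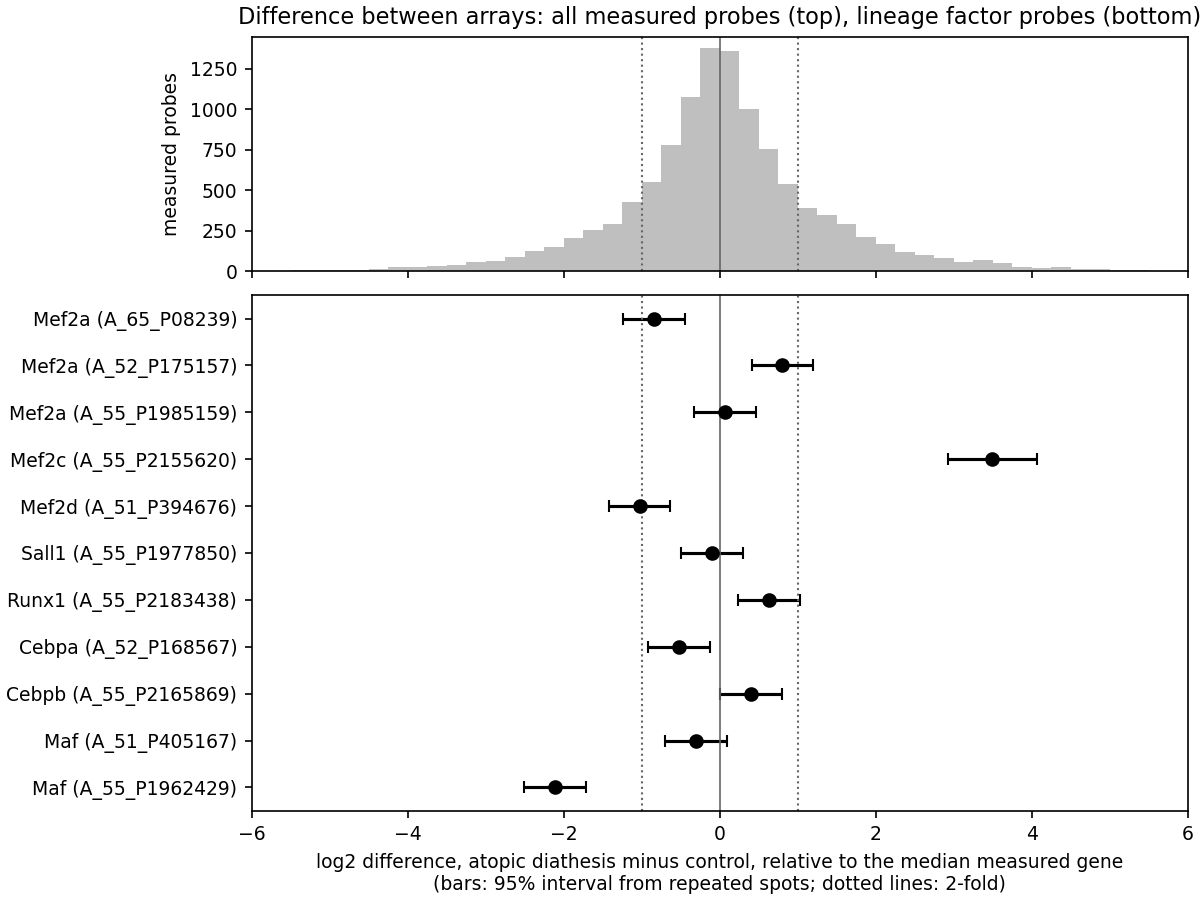
Log2 difference (atopic diathesis minus control, relative to the median measured gene) of the 11263 measured probes as a histogram (top) and of the 11 measured lineage factor probes (bottom), with 95% intervals from repeated spots and dotted lines at 2-fold. Mef2c stands at 3.50, 1 Maf probe at -2.11, and the 3 Mef2a probes at 0.07, -0.85 and 0.80.

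Sall1, a zinc finger repressor that among central nervous system cells of the adult is a mark of microglia, had nearly the same signal on both arrays. Its probe (chr8:91551278-91551337, minus strand) read 8861 in control and 8085 in atopic diathesis, a difference of -0.10 ± 0.40. Zero lies inside this interval.

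Of the factors that drive the myeloid lineage, Spi1 could not be assessed. The probe for PU.1, the ETS factor on which all macrophages depend, read 12.9 in control and 11.99 in atopic diathesis, at background on both, so no fold is given. In the same samples target genes of PU.1 were measured. Itgam, the integrin alpha M chain (CD11b), had a difference of -0.14, by 1 measured probe of 3. Csf1r, the receptor for colony stimulating factor 1, had a difference of -0.32, by all 3 of its probes. A signal at background on this 1 probe thus does not show that the gene is silent.

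Runx1, whose product binds DNA together with CBFB, had 1 measured probe of 2. The measured one (chr16:92605785-92605844, minus strand) read 256 and 389, a difference of 0.64 ± 0.40, past spot error but within 2-fold. The 2-fold line lies inside this interval, though not inside the ±0.29 of spots with a signal of 100 to 1000. The other (chr16:92604413-92604472, minus strand) stayed at background on both, at 15.3 and 4.75. With no background filter both enter and the gene mean turns to -0.59.

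The C/EBP factors are leucine zipper proteins of macrophage differentiation, and C/EBP beta also serves inflammatory gene induction. Cebpa (chr7:35906517-35906576, plus strand) read 11127 in control and 7560 in atopic diathesis, a difference of -0.52 ± 0.40. Cebpb (chr2:167515828-167515887, plus strand) read 8022 and 10319, a difference of 0.40 ± 0.40. Both stayed within 2-fold and past the ±0.15 of bright spots, with Cebpb at the edge of the wider interval. Cebpa came to -1.02 and Cebpb to -0.10 on the scale of the 75th percentile of all probes, where the median gene itself lies at -0.50.

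Maf, a leucine zipper factor of the large Maf group, had 2 measured probes that differed in size. The probe A_51_P405167 read 4975 in control and 3946 in atopic diathesis, a difference of -0.30 ± 0.40. The probe A_55_P1962429, which belongs to another annotated transcript and lies further along the minus strand, read 741 and 168, a difference of -2.11 ± 0.40, or 4.31-fold lower. The second was past the wider interval, and the first only past the ±0.15 of bright spots. Their mean of -1.21 put Maf past 2-fold, and with the brighter probe alone it was -0.30. The range of 1.81 stood at percentile 82.8 among the 1135 genes with 2 measured probes, whose median range was 0.62.

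**Figure D3:**
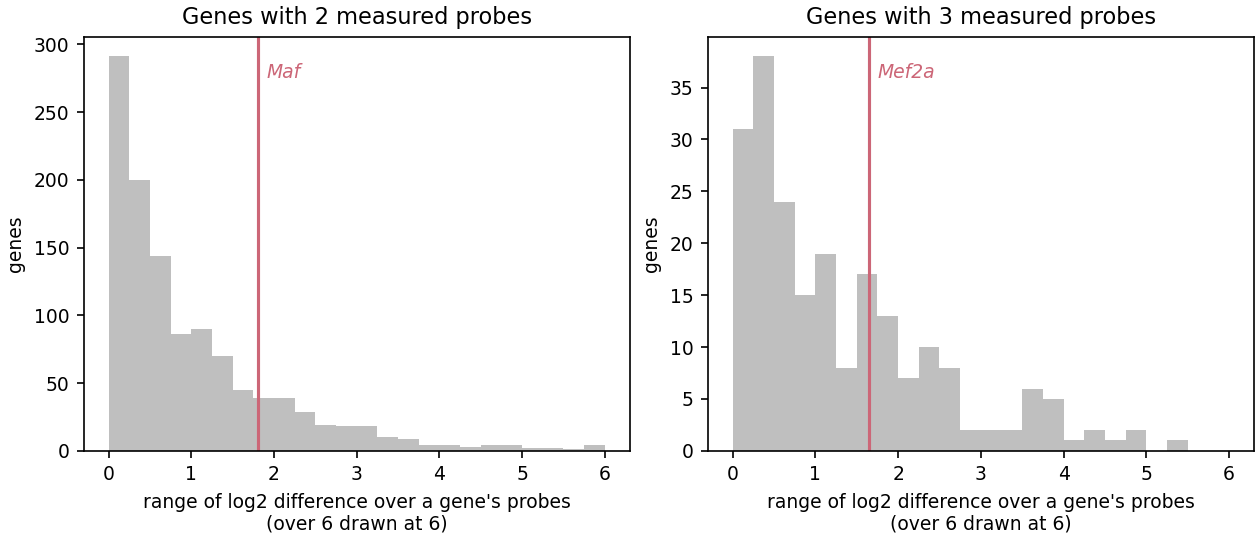
Range of the log2 difference over the measured probes of a gene (x axis) against the number of genes (y axis), for genes with 2 measured probes (left) and 3 (right), with ranges over 6 drawn at 6. Red lines mark Maf at 1.81 (percentile 82.8 on the left) and Mef2a at 1.65 (percentile 66.4 on the right).

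From highest to lowest the order of the differences was Mef2c, Runx1, Cebpb, Mef2a, Sall1, Cebpa, Mef2d and Maf. The gap from Mef2c to Runx1 was 2.86, past its spot interval of 0.69. The other 6 gaps between neighbours ran from 0.11 to 0.50, inside their interval of 0.56. With intervals by signal, 3 of these 6 gaps were past theirs as well: Cebpb to Mef2a (0.39 against 0.33), Sall1 to Cebpa (0.43 against 0.21) and Cebpa to Mef2d (0.50 against 0.33). All these intervals cover spot error only, not the disagreement between probes of Mef2a (range 1.65) and Maf (range 1.81). The places of Mef2a and Maf are therefore less sure than the intervals say. With the brightest probe per gene Maf was no longer last, at -0.30 against -0.52 for Cebpa. Signals of different genes were not ranked, because probes differ in how strongly they bind.

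**Figure D4:**
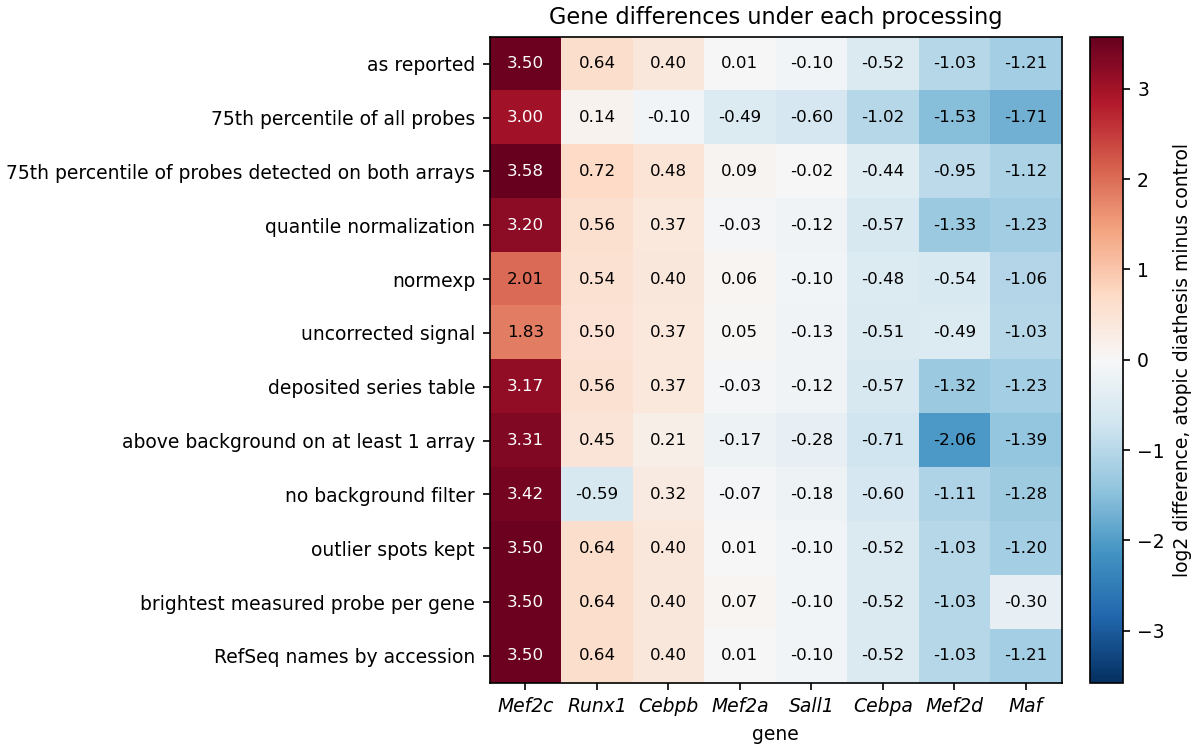
Log2 difference of each measured lineage factor (columns) under the processing reported and 11 alternatives (rows), with red for higher and blue for lower in atopic diathesis. Mef2c stays between 1.83 and 3.58, while Mef2d runs from -2.06 to -0.49.

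Relatives and partners of the factors were taken from 6 lists, with 92 genes on the array and 54 measured. Of these 8 were higher and 5 lower, 24.1% past 2-fold against 32.9% of all measured genes. The MEF2 list had 11 measured genes, of which 2 were higher and 1 lower. Mapk7, the kinase ERK5 that activates MEF2 factors, read 58.8 and 314 (2.45). The calcineurin subunits, phosphatase chains that act on MEF2 in calcium signalling, split: Ppp3cb read 248 and 864 (1.83) and Ppp3ca 4686 and 1585 (-1.53). Hdac5, a class IIa deacetylase that represses MEF2, was above background in control only (57.4 and 8.06), at least 2.82-fold lower. Hdac7 (0.17) and Hdac9 (-0.09) were within 2-fold. The bounds of listed genes, here and below, were not recomputed with normexp or uncorrected signals, which shrank that of Mef2d.

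Of 4 measured genes of the RUNX list, the corepressor Cbfa2t3 was lower (87.9 and 37.3, -1.20), by 1 measured probe of 3. With normexp or with uncorrected signals no gene of this list was lower. Cbfb, the shared partner subunit, read -0.71. The corepressor Tle1 (4 probes, none measured) was above background in control only, at least 5.72-fold lower. Among 9 measured ETS genes Elk3 was lower (-1.13), by 1 measured probe of 2. No ETS gene was lower without a background filter, or where a signal on either array sufficed. The Elk3 call was thus lost there. With quantile normalization, in the deposited series table and on the scale of the 75th percentile of all probes, 2 ETS genes were lower. Gabpa was above background in atopic diathesis only, at least 2.18-fold higher. Spib and Spic, the closest relatives of PU.1, stayed at background on both arrays. In the C/EBP list 1 of 6 measured genes was lower, Cebpg, which pairs with other C/EBP factors (761 and 103, -2.85), and Cebpd read 0.03. The lower count of this list was 4 on the scale of the 75th percentile of all probes and 2 with quantile normalization. All 5 measured Maf and SALL relatives lay within 2-fold. Of the small Maf factors, Maff was above background in control only, at least 6.59-fold lower, and Mafk in atopic diathesis only, at least 2.63-fold higher.

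Other myeloid and microglial factors numbered 19 measured, 6 higher and 1 lower, beside 17.3% and 15.6% of all measured genes. On the scale of the 75th percentile of all probes they were 4 and 5, and with normexp or uncorrected signals 4 and 1. The counts thus depend on the scaling and on the background correction. The largest differences were those of Hhex, a homeobox factor (151 and 1010, 2.77), Mitf, a relative of TFEB (94.7 and 370, or 2.001), Nr3c1, the glucocorticoid receptor (1.75), and Tcf4, an E protein (1.56). Mitf, Nr3c1 and Tcf4 each had 1 measured probe of 2. The lower one was Zfhx3 (-1.30), named after its value was seen. Irf8, a partner of PU.1 in microglia, read 0.22. Batf3 and Myb were above background in control only, at least 27.0-fold and 6.95-fold lower. Ikzf2 (2 probes, none measured) was above background in atopic diathesis only, at least 8.94-fold higher. Of 23 measured genes known as targets of the members, 21 were within 2-fold, with a median of -0.14. The 8.70% past 2-fold stand beside 32.9% of all measured genes. By signal, 15.3% of the probes with a mean signal of 987 or more were past 2-fold, and 36.4% of those from 295 to 986. The targets ran from Itgax (88.9 and 97.0) to Itgam (92920 and 82663), so neither share matches them. The lower count ran from 1 to 4 over the alternatives. The exceptions were Csf2rb (708 and 262, -1.40) and Fcgr1 (851 and 411, -1.02), the latter at the 2-fold line.

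**Figure D5:**
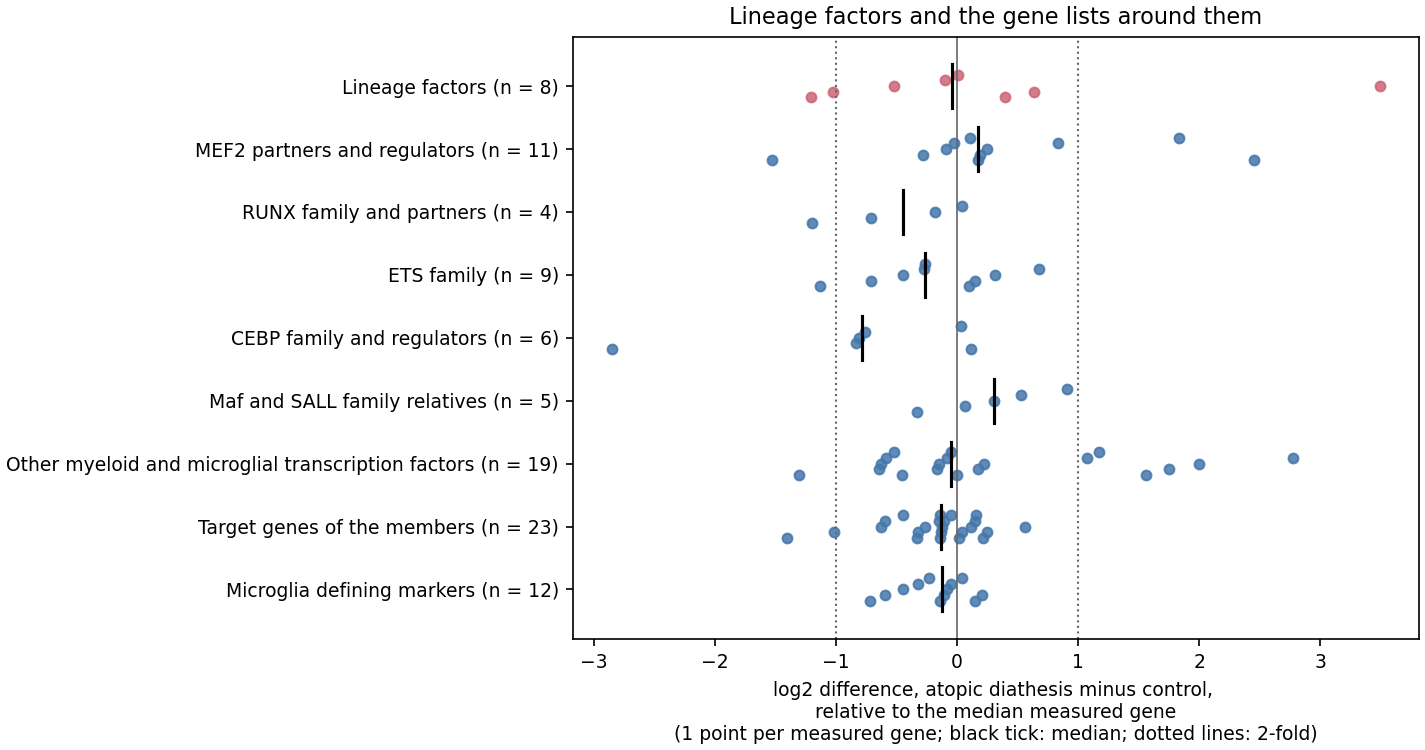
Log2 difference (x axis) of every measured lineage factor (red) and of the measured genes of the lists around them (blue), 1 point per gene, with black ticks at list medians and dotted lines at 2-fold. Apart from Mef2c at 3.50, the lineage factors lie between -1.21 and 0.64, and the microglia markers all lie inside the dotted lines.

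Lineage factors are known to act on their own genes, so the members' promoters were searched for the words they bind. RefSeq windows of GRCm38.p6 (from 250 bases before to 50 after a start) were given for 7 of the 9 genes. The words, on both strands, were CTA and TAG with any 4 bases between for MEF2, GAGGAAGT for PU.1, TTGCNNAA for C/EBP, TGTGGTT for RUNX and TGCTGAC for MAF, which occur in 3.69%, 3.2%, 10.8%, 5.27% and 4.67% of 32851 windows. Mef2a and Runx1 held a word of their own family, shown in capitals with its surroundings (chr7:67372841-67372870 and chr16:92826025-92826054, both minus strand, GRCm38.p6).
Mef2a: ggcctgactcCTAAAAATAGccccggtgtg
Runx1: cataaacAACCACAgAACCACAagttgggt

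No window of Mef2c, Mef2d, Sall1, Cebpa or Cebpb held any of the 5 words, which says only that these letters are not in those windows. Both genes that held a word lay within 2-fold between the arrays.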

How the data were processed

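Total RNA of sorted spinal cord microglia (1 control and 1 atopic diathesis sample) was labelled with Cy3 by a low-input kit, per the labels' protocols. The deposited scanner files give fluorescence intensity per spot on a linear scale, background-subtracted within the array by Agilent Feature Extraction, version 10.7.1.1 per the file headers and 9.5.1.1 per the submitters' processing notes. The deposited series table, used as an alternative, holds 1 intensity per probe, and each column has its median at 6.64. Within each array it ranks probes as the scanner file does (Spearman correlation 1.00). Its normalization is not stated there.

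From these files, control spots and outlier spots (136 and 122) were left out, log2 signals of a probe's spots were averaged, and a probe counted as above background where most of its spots did. A gene's value is the mean over probes above background on both arrays, minus the median of all 9204 measured genes (-0.03 before centring). A probe above background on 1 array has a bound instead: its bright signal divided by the dim value or, where that is smaller, by the lowest signal that counted as well above background on the dim array. List genes were looked up by file name or by RefSeq name through the accession. Scripts ran in Python 3.11.15 and limma 3.58.1 (normexp, offset 50) and were tested on simulated data.

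Members and lists were chosen with earlier results of these data known. Named from each list are its genes past 2-fold where 5 or fewer, otherwise the 4 largest, and bounds of at least 2-fold where 3 or fewer; well-known relatives within 2-fold and genes of the marker lists were added after their values were seen. Alternatives were other scalings, background corrections, filters, probe choices and names. Some items are not reported here. No depth exists for arrays; their number limits the precision.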

Additional observations from a re-analysis of the deposited data

How the results depend on the processing

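Mef2c was the only member past 2-fold on the higher side under all 11 alternatives. The lower side held 2 genes, Maf and Mef2d, but 1 with normexp, uncorrected signals, the 75th percentile of detected probes or the brightest probe per gene, and 3 with the 75th percentile of all probes, where Cebpa joined. Lower probes numbered 2, but 1 under the first 3 of these and 4 with the 75th percentile of all probes, with probes detected on 1 or both arrays or with no filter. Of 88 gene differences recomputed, 15 moved by 0.40 or more and none past 2-fold changed sign. The alternatives were not all separate checks. Quantile normalization and the deposited series table gave nearly the same member differences (Mef2c 3.20 and 3.17). Keeping outlier spots or using RefSeq names left them almost unchanged (Mef2c 3.50 under both). Scaling shifted the median gene to -0.50 (75th percentile of all probes) and -0.17 (quantile), and the share higher among all genes past 2-fold from 52.6% to 28.3% and 42.0%. Of 126 counts of listed genes past 2-fold, 34 moved by over 1.5 times or to or from 0, mostly the lower counts. No paired analysis was possible because each group has 1 sample.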
